A study of Homo sapiens with 47 samples.

Results

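The protein-coding genes of the short arm of chromosome 20 (20p) were examined in HEK293T cells of wild type and of an EAF1-mutant line, by sequencing total RNA after removal of ribosomal RNA. Members were all protein-coding genes on chromosome 20 of GRCh38 with a lower coordinate under 28000000, except PCNA, XRN2, SNRPB, SNRPB2 and POLR3F, which were left out by name. This gave 178 members of 19773 protein-coding genes and 58395 genes in the count table. The arm was chosen by the counts of its genes in this same comparison of mutant and wild-type cells. The fold changes of its members are therefore given as a description, with no test, and calls on members are plain counts.

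HEK293T is a transformed human embryonic kidney line. Wild-type cells carry the unmodified EAF1 gene, and in the mutant line both EAF1 alleles encode a protein in which a short stretch of the MED26-binding site was replaced by alanines. EAF1 is a partner of the ELL elongation factors, and the study asked how its contact with Mediator affects transcription. The mutant line was made by CRISPR knock-in and is derived from 1 clone, so what belongs to the mutation and what belongs to that clone cannot be told apart. Each genotype had 3 libraries, with 59137210, 52541541 and 55637032 counts for wild type and 57198018, 53369621 and 66611451 for EAF1-mutant cells. The study's methods speak of biological replicates in general. Its reporting summary states that experiments were repeated at least 3 times, and RNA-seq is not among the exceptions listed there. The labels do not say which libraries came from separate cultures, so calls rest on the spread between these libraries, part of which may be technical. Values per library are in CPM, counts scaled to a common library size after TMM normalization.

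EAF1 itself, on chromosome 3, was measured at 57.5, 58.4 and 56.5 CPM in the wild-type libraries and at 19.7, 17.9 and 18.8 CPM in the mutant libraries. All mutant values lay under all wild-type values, but the gene counts do not show the substituted bases. For EAF1 protein the study reported little change in the mutant line by western blot. All of 10 markers of HEK293T cells passed the filter on low counts. Their summed level was 795, 810.4 and 821 CPM in wild type and 627, 614 and 625 CPM in the mutant, with the intermediate filament gene VIM the most abundant in every library. VIM and the neurofilament gene NEFM were called lower, and the keratin genes KRT8 and KRT18 were called higher. The 10 markers of blood, fibroblast, endothelial, liver and astrocyte cells summed to 7.27, 7.60 and 7.75 CPM in wild type and 9.72, 9.95 and 10.7 CPM in the mutant. Of the latter 10, 3 were tested and 1, the collagen gene COL1A1, was called higher. In 5 of the 6 libraries the T cell gene CD3E had no count. The part of these marker differences in the values below was not tested.

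A chromosome arm is the DNA on one side of the centromere. Its genes share a molecule and an order along it rather than a function, and those of 20p range from enzymes that every cell uses to genes that only specialised tissues use. Among the latter are clusters of related genes: beta-defensins, which are secreted antimicrobial peptides, cystatins, which inhibit cysteine proteases, and SIRP receptors of the immune system.

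Of the 178 members, 123 passed the filter on low counts and were tested, and 55 did not. Among the 55, 14 had no count in any library, and the other 41 had at most 53 counts over the 6 libraries together. The tested members had a median log2 fold change of -0.55 (mutant against wild type, quartiles -0.77 and -0.30), which is a ratio of 0.682. Of the 123, 107 lay under 0 and 16 over 0. A gene was called where edgeR's quasi-likelihood test, adjusted over all 28025 tested genes, gave an adjusted p under 0.01 with the log2 fold change above 0.5 or below -0.5. By this rule 68 members were called lower, beside 9.36% of all tested genes. Another 7 members were called higher, beside 11.0% of all tested genes, and 48 were not called. Of the 7, FOXA2 reached the level of the filter in mutant libraries only, so that it had to differ, and its call is given no weight; the 6 others reached it in all libraries. All 3 mutant libraries lay under all 3 wild-type libraries for 99 members (28.1% of all tested genes) and over them for 9 members (29.2%). Since the arm was picked from these values, nothing is read from these shares. In bulk RNA, fewer cells that express a gene and less RNA per cell cannot be told apart.

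The lower level appeared in each mutant library. Against the wild-type mean, the median of the tested members was -0.54, -0.56 and -0.56 on the log2 scale in the 3 mutant libraries. The 3 wild-type libraries stood at -0.01, 0.00 and 0.01 on the same measure. Members together held 0.448% ± 0.00282 of all counts in wild type (SD, n = 3) and 0.313% ± 0.00231 in the mutant (SD, n = 3). The long arm of the same chromosome, 20q, held 1.08% ± 0.0129 and 1.18% ± 0.000973. The 279 tested protein-coding genes of 20q had a median log2 fold change of 0.07. Of these, 6 (2.15%) were called lower and 21 (7.53%) higher, beside 9.36% and 11.0% of all tested genes. All 15316 tested protein-coding genes outside the members had a median of 0.01.

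**Figure D1:**
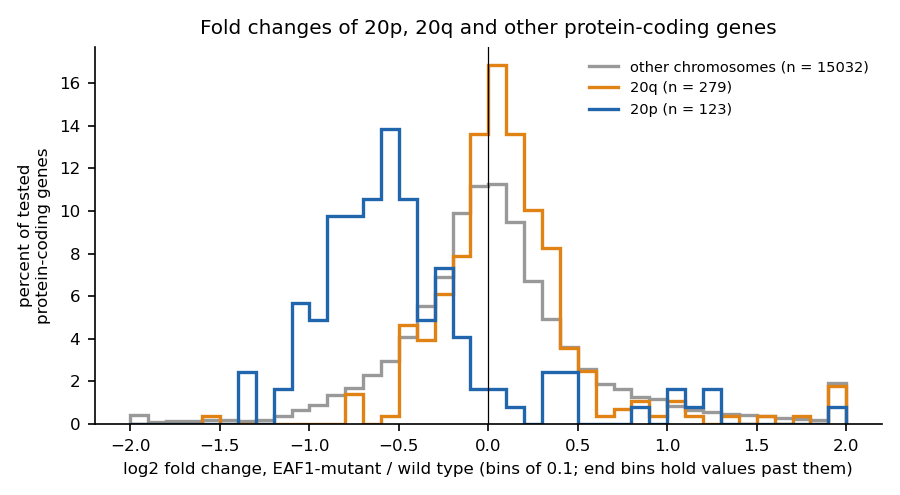
Distribution of log2 fold changes (mutant against wild type, x axis, bins of 0.1) as a percent of tested protein-coding genes (y axis) for 20p members, 20q and the other chromosomes; the end bins also hold all values past them. The 20p curve peaks near its median of -0.55, and the 20q curve near its median of 0.07.

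The spread around the median was uneven. Of the tested members, 55 lay within 0.2 of it, 12 were at -1 or lower, and 7 were over 0.5. The fold change also differed with the amount of RNA. For the 85 members that averaged 10 CPM or more the median was -0.65, with 82 under 0. The 26 members from 1 to 10 CPM had a median of -0.29, and the 12 under 1 CPM had a median of -0.14. The same order was seen outside 20p. At these levels the medians were 0.02, 0.16 and 0.38 for 20q and -0.04, 0.15 and 0.36 for all other tested protein-coding genes. When only library totals were used for scaling, all tested genes had a median of 0.13 rather than 0.01, and that of the members was -0.44. With library totals alone, 50 members were called lower and 8 higher, beside 6.57% of all tested genes called lower and 14.9% higher.

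Along the arm the median was under 0 in each window, but not every member was lower. In the windows from 5 to 10 Mb and from 20 to 28 Mb the upper quartile was over 0 (0.15 and 0.03). Some called-higher members were neighbours, such as FERMT1 and BMP2. From 0 to 5 Mb the 54 tested members had a median of -0.57, with none called higher. The 15 members from 5 to 10 Mb had a median of -0.31, the 12 from 10 to 15 Mb one of -0.69, and the 17 from 15 to 20 Mb one of -0.55. The 25 members from 20 to 28 Mb had a median of -0.41, which moved to -0.20 with no filter on low counts and to -0.23 with DESeq2. The window from 5 to 10 Mb holds few genes. Its median was -0.55 without EAF1-mutant replicate 2 and -0.19 with library totals without TMM. Among members with a mean of at least 10 CPM the windows were closer together, at -0.66, -0.72, -0.62, -0.60 and -0.60 in the same order. Called-higher members (11.0% of all tested genes) fell in the windows from 5 to 10 Mb (2), 10 to 15 Mb (2) and 20 to 28 Mb (3, with FOXA2). Called-lower members (9.36% of all tested genes) numbered 32, 7, 6, 11 and 12 in the order of the windows. A running median over 11 neighbouring members was lowest, at -0.86, around ITPA and highest, at -0.21, around THBD.

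At the outer end of the arm, the first 3 tested members that averaged 1 CPM or more were C20orf96 (log2 fold change 0.11), the zinc finger gene ZCCHC3 (-0.56) and the transcription factor gene SOX12 (-1.05). The last members inside the coordinate limit were NINL (-0.41), NANP (-1.09) and ZNF337 (-0.61). The first tested genes beyond it, all on 20q, were the signal peptide peptidase gene HM13 (0.09), MCTS2 (0.16) and the transcription regulator gene ID1 (0.12). MCTS2 lies within the span of HM13 and both have exons that overlap other genes, so they may not be separate measurements. ZNF337, the last member inside (chr20:25673195-25696853), had 27.98, 29.3 and 27.3 CPM in wild type and 17.8, 19.4 and 18.3 CPM in the mutant. HM13, the first gene outside (chr20:31514428-31577923), had 119, 114 and 115 CPM in wild type and 121, 127 and 121 CPM in the mutant. The mutant libraries were thus all lower for the last protein-coding member and all higher, by a small step, for the first tested protein-coding gene of 20q. Loci without a protein that lie past ZNF337 and under the coordinate limit, named after their values were seen, were divided. Called lower (9.36% of all tested genes) were ENSG00000250090 (-1.13), ENSG00000204556 (-0.90) and ENSG00000231081 (-0.79). The long noncoding RNA FAM182B was called higher (1.31, beside 11.0% of all tested genes). Not called were FAM182A (0.69), VN1R108P (0.60), ENSG00000226465 (-0.003) and MIR663AHG (-0.03). Nothing is read from these few calls.

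**Figure D2:**
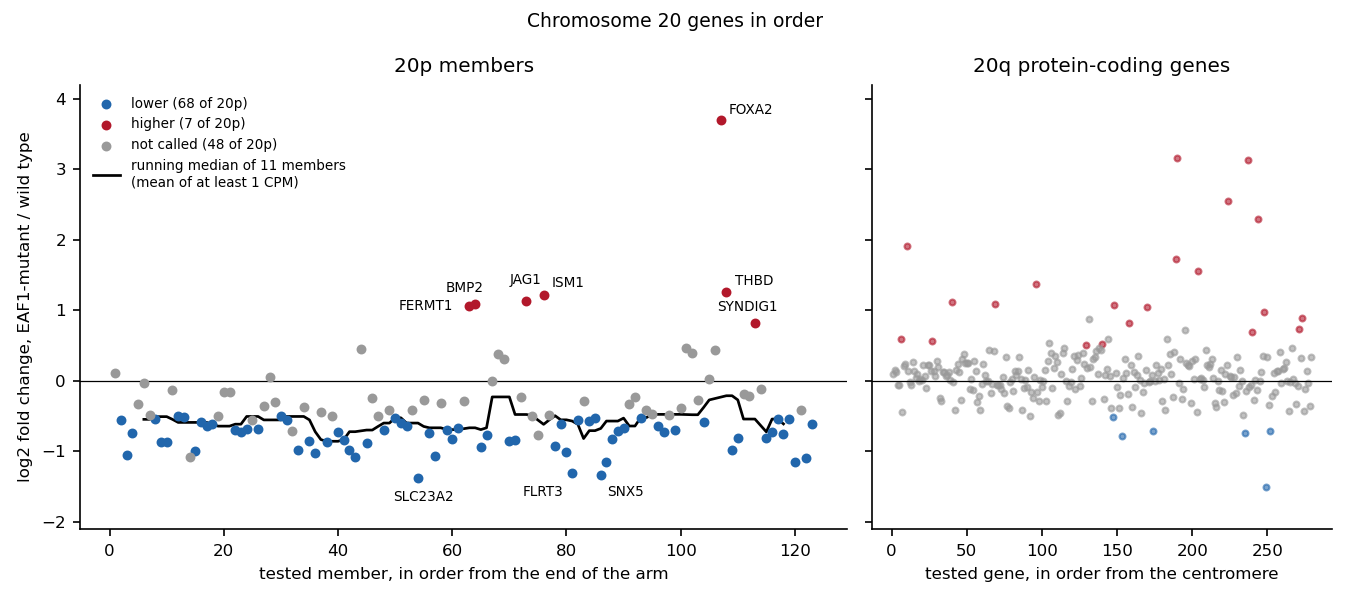
Log2 fold change (mutant against wild type, y axis) of tested protein-coding genes in their order along chromosome 20 (x axis), 20p members on the left and 20q on the right; blue, red and grey points were called lower, called higher or not called, and the line is a running median over 11 members with a mean of at least 1 CPM. In 20p the line runs between -0.86 and -0.21 from RBCK1 to PYGB, with no value at either end of the arm. The 7 members called higher lie above it.

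Function lists covered 131 members in 10 groups, of which 95 were tested. Calls in each list stand beside 68 lower and 7 higher among the 123 tested members. Of 9 tested genes for DNA replication, repair, chromosomes and the centrosome, all were under 0 (median -0.59), and 4 were called lower, beside 9.36% of all tested genes. GINS1 encodes a subunit of the GINS complex, which works with the MCM helicase at replication forks. It was measured at 75.1, 79.8 and 76.2 CPM in wild type and at 36.1, 33.7 and 34.2 CPM in the mutant, a log2 fold change of -1.15 (standard error 0.04). MCM8, a helicase subunit that acts in homologous recombination, had 141, 140.3 and 139 CPM in wild type and 79.1, 78.9 and 78.1 CPM in the mutant (-0.83, standard error 0.04). The centromere protein gene CENPB stood at 62.6, 53.1 and 61.1 CPM in wild type and at 31.3, 32.7 and 32.1 CPM in the mutant (-0.88, standard error 0.05). For each of these the groups were far apart with no overlap. NINL, a centrosomal protein gene, was not called (-0.41, standard error 0.06).

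Of 9 tested genes for RNA processing, ribosome assembly and translation, 8 were called lower, beside 9.36% of all tested genes (median -0.72). NOP56, a core protein of box C/D snoRNPs needed for rRNA methylation, was the most abundant named gene of this group per length, at 80.8 CPM per kb of exon in wild type. Its libraries gave 404, 392 and 404 CPM in wild type and 251, 249 and 246 CPM in the mutant (-0.69, standard error 0.03). MRPS26, a protein of the mitochondrial ribosome, had 51.1, 48.5 and 52.4 CPM against 27.5, 24.2 and 25.5 CPM (-0.98, standard error 0.05). Wild-type and mutant values were well separated for both genes. ESF1, which takes part in making the small ribosomal subunit, was at -0.92, and NXT1, a partner of the mRNA export receptor, was at -0.98.

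The 17 tested genes for mitochondria and metabolism had a median of -0.74, all under 0, with 14 called lower, beside 9.36% of all tested genes. SLC23A2, a vitamin C transporter, was the lowest named member of the arm. It had 60.6, 59.4 and 56.5 CPM in wild type and 22.4, 23.2 and 22.4 CPM in the mutant, a log2 fold change of -1.38 (standard error 0.04). Its mutant values were tightly grouped and far under the wild-type ones. MGME1, a nuclease for mitochondrial DNA, was at -0.82 and ITPA, which removes inosine triphosphate from the nucleotide pool, at -0.86. GPCPD1, a glycerophosphocholine phosphodiesterase, was at -1.06 and NANP, a phosphatase of sialic acid synthesis, at -1.09. IDH3B, a subunit of the NAD-dependent isocitrate dehydrogenase of the citric acid cycle, was lower in all mutant libraries but was not called (-0.36, standard error 0.04).

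The 21 tested loci for vesicle traffic and protein handling were all under 0, with 11 called lower, beside 9.36% of all tested genes, and 10 not called (median -0.50). SNX5, a sorting nexin of the endosome, had 348, 349 and 335 CPM in wild type and 138, 138 and 134 CPM in the mutant (-1.33, standard error 0.04). All its mutant values were under all wild-type values. TMEM230, a membrane protein of transport vesicles, was at -0.27 and DDRGK1, an adaptor of the UFM1 conjugation system, at -0.45. Both had all mutant libraries under all wild-type libraries and neither was called.

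Signalling and adhesion genes were divided. Of 19 tested, 13 were under 0, 7 were called lower (9.36% of all tested genes) and 5 higher (11.0%), with a median of -0.33. BMP2 (ENSG00000125845, chr20:6767686-6780246) encodes a secreted ligand of the TGF-beta family that acts through SMAD proteins. It had 51.8, 52.7 and 51.0 CPM in wild type and 109.8, 109 and 112 CPM in the mutant, a log2 fold change of 1.09 (standard error 0.04). JAG1 (ENSG00000101384, chr20:10637684-10673999) encodes a membrane-bound ligand of Notch receptors. Its libraries gave 10.8, 10.6 and 10.2 CPM in wild type and 22.7, 22.8 and 24.1 CPM in the mutant (1.14, standard error 0.05). For both ligands every mutant library stood above every wild-type library, and the values within each genotype were close.

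The other called-higher genes of this group had less RNA. THBD, thrombomodulin, an anticoagulant receptor of the cell surface, had 1.75, 1.76 and 1.36 CPM in wild type and 3.66, 4.35 and 3.74 CPM in the mutant (1.26, standard error 0.13). ISM1, a secreted protein, had 1.75, 1.52 and 1.40 CPM against 3.73, 3.67 and 3.52 CPM (1.22, standard error 0.12). FERMT1, an integrin activator of the kindlin family, had 0.654, 0.791 and 0.691 CPM against 1.48, 1.33 and 1.64 CPM (1.06, standard error 0.17). No wild-type library of these 3 genes reached the lowest mutant library, though at such levels the errors were larger than for BMP2.

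On the lower side of the same group stood FLRT3, a cell adhesion protein with leucine-rich repeats. It had 18.9, 19.5 and 17.2 CPM in wild type and 7.89, 7.77 and 6.81 CPM in the mutant (-1.31, standard error 0.07). The groups were fully separated. MAVS, the mitochondrial adaptor of RNA sensing in innate immunity, was at -0.70 and PTPRA, a receptor tyrosine phosphatase, at -0.55. CSNK2A1, the catalytic alpha subunit of casein kinase CK2, had 206, 212 and 204 CPM in wild type and 145, 138 and 142 CPM in the mutant (-0.54, standard error 0.04). Its fold change was close to the median of the arm, with no overlap between genotypes. The calls of PTPRA and CSNK2A1 were lost when only library totals were used for scaling.

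**Figure D3:**
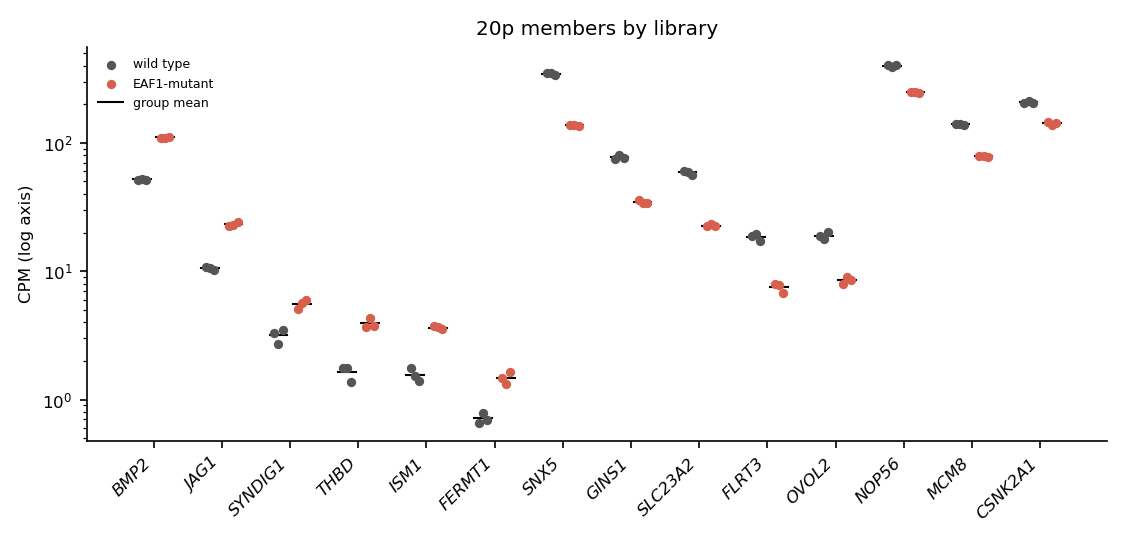
CPM in each library (y axis, log scale) for 14 named members (x axis); grey points are the 3 wild-type and red points the 3 EAF1-mutant libraries, and bars are group means. The 6 genes on the left, from BMP2 to FERMT1, were higher in every mutant library, and the 8 on the right were lower in every one.

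Of 12 tested transcription factor and cofactor genes, 7 were under 0 (median -0.47), and 6 were called lower (9.36% of all tested genes) and 1 higher (11.0%). OVOL2, a zinc finger repressor of epithelial cells, had 18.7, 17.8 and 20.05 CPM in wild type and 7.99, 9.01 and 8.49 CPM in the mutant (-1.15, standard error 0.06). SOX12 had 30.9, 32.9 and 36.1 CPM against 14.9, 17.2 and 16.2 CPM (-1.05, standard error 0.06). Both were clearly lower in all mutant libraries. KAT14, a subunit of the ATAC histone acetyltransferase complex, was at -0.71. Over the genes of this list with a mean of at least 1 CPM, fold changes ran from -1.15 to 0.40. The call of FOXA2, a forkhead factor of endoderm, is the 1 higher and is given no weight, as said above. FOXA2 lies outside the naming rule because of its low level and is named after its values were seen. It had 1, 1 and 2 counts in the wild-type libraries and 20, 22 and 22 counts in the mutant libraries, too few in wild type for a fold change to be given.

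Among genes of neurons and hormone secretion, 5 of 12 were tested, 3 were called lower (9.36% of all tested genes) and 1 higher (11.0%). PRNP, the prion protein gene, was at -0.65, NRSN2 at -0.74 and SNPH, syntaphilin, which anchors mitochondria in axons, at -0.99. SYNDIG1, a membrane protein of excitatory synapses, had 3.31, 2.73 and 3.49 CPM in wild type and 5.10, 5.67 and 6.01 CPM in the mutant (0.81, standard error 0.10). Its groups did not overlap, but relative to their mean its wild-type libraries were spread more widely than those of BMP2. Not tested were genes of neurosecretion such as CHGB, SNAP25, OXT and PDYN; the latter 2 had no count.

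The gene clusters of 20p with roles in specialised tissues gave few tested members. None of the 6 beta-defensin genes was tested, 2 of 11 cystatin genes were, and 2 of 5 SIRP genes were. Cystatin C, CST3, the widely expressed member of its family, had 28.01, 23.0 and 27.2 CPM in wild type and 22.3, 23.1 and 22.4 CPM in the mutant. Here a wild-type library lay within the range of the mutant ones, and the gene was not called (-0.21, standard error 0.06). SIRPA, an inhibitory receptor that binds CD47, was not called either (-0.15, standard error 0.08).

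**Figure D4:**
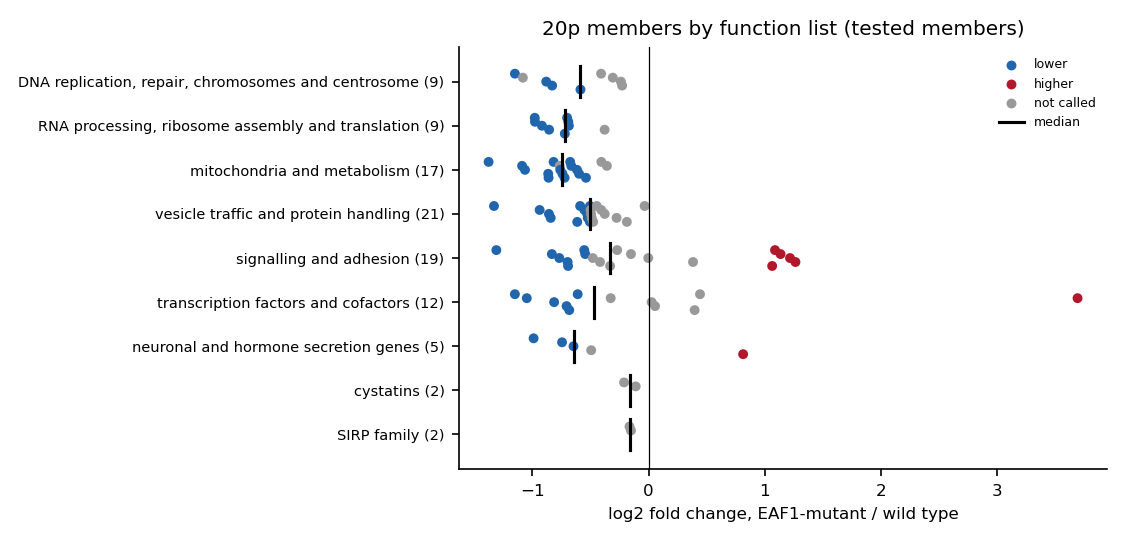
Log2 fold change (mutant against wild type, x axis) of the tested members of each function list (y axis, number tested in brackets); points are genes coloured by call and bars are list medians. Members called higher appear in the signalling list (5), the transcription factor list (1) and the neuronal list (1), and the FOXA2 point at the far right rests on a handful of wild-type counts.

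Promoter sequences are shown for 3 members that stood at different places in this profile, picked after their values were seen: JAG1, called higher; SOX12, among the 10 lowest named members; and KIF16B, a kinesin of endosomes, which lay at the median (-0.55). Each is the 250 bases before the RefSeq start site, written 5′ to 3′ in the direction of the gene (GRCh38.p14). The windows are chr20:10674000-10674249 on the minus strand for JAG1, chr20:325302-325551 on the plus strand for SOX12 and chr20:16573449-16573698 on the minus strand for KIF16B. None overlaps an annotated exon. The JAG1 window lies in an intron of the antisense locus ENSG00000270792, and the SOX12 window in an intron of the antisense gene NRSN2-AS1. Capitals mark the GC box GGGCGG, the CCAAT box CCAAT and the TATA box TATAAA, searched on both strands.
JAG1: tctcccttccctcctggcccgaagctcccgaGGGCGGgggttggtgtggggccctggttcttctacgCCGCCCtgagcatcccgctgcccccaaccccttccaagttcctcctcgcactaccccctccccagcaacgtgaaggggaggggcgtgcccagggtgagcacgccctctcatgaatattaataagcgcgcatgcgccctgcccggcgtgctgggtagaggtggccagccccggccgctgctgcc
SOX12: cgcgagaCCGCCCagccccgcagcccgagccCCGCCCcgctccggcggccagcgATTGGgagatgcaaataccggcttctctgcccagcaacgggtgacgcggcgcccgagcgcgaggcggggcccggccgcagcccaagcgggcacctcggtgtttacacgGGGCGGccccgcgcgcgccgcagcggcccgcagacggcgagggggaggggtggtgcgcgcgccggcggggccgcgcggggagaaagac
KIF16B: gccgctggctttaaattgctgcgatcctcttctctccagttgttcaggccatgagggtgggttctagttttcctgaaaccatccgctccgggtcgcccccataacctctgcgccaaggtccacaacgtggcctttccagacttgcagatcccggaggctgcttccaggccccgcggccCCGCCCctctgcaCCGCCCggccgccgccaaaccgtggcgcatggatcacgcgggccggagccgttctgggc
The JAG1 window held 2 GC boxes, the KIF16B window 2, and the SOX12 window 3 with 1 CCAAT box. None held the TATA box. Over all 35116 RefSeq windows of this length, 42.6% held a GC box, 32.0% a CCAAT box and 10.7% a TATA box. A match is a description of these letters and not a binding site, and no match says only that the letters are not in this window. RefSeq windows were matched to 89 of the 123 tested members. This is 72.4%, under the 80% required, so a comparison of base composition over the members is void. BMP2, ISM1, THBD, FERMT1, SYNDIG1, FOXA2, SLC23A2 and OVOL2 had no entry.

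Across the 123 tested members, the log2 fold change went with the wild-type level per length (Spearman's rho -0.46 over genes). A lower median at a higher level was also seen in 20q and in the other genes, as given above. For the 85 members with a mean of at least 10 CPM the rho was -0.28. These points share the same 6 libraries, and the wild-type level enters both measures, so the relation is a description only. With exon length the rho was -0.01 and with position along the arm 0.09. The most abundant member per length was ENSG00000256566 at 113 CPM per kb of exon, but its exons overlap those of other genes. After NOP56, the next were MRPS26 at 49.8, SNX5 at 43.2, ENSG00000284776 at 39.0 and ADISSP at 36.2 CPM per kb. Exons of NOP56 also overlap those of small RNA genes, and exons of ENSG00000284776 those of SMIM26 and DTD1. DSTN, an actin-depolymerizing factor (-0.57), and APMAP, a membrane protein of adipocytes (-0.81), were also among the 10 highest per length. Called lower too were LZTS3, a leucine zipper protein (-1.03), and ENTPD6, a nucleoside phosphatase near the median (-0.54). The calls of DSTN and ENTPD6 were lost when only library totals were used for scaling.

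**Figure D5:**
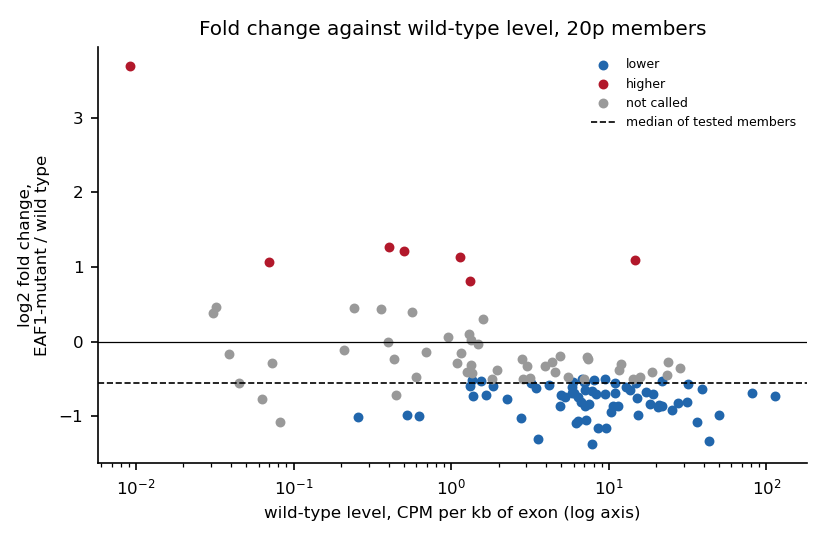
Log2 fold change (mutant against wild type, y axis) of the 123 tested members against their wild-type level in CPM per kb of exon (x axis, log scale), coloured by call, with the median of -0.55 as a dashed line. Members called lower lie mostly over 1 CPM per kb, and BMP2 is the called-higher member with the highest level (14.6 CPM per kb).

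Some members share reads. Exons of 49 tested members overlap an exon of another annotated gene, and their median was -0.59, against -0.55 for the 74 others. SRXN1, sulfiredoxin, and the overlapping locus ENSG00000270299 had 7560 and 7574 counts over the 6 libraries and a log2 fold change of -0.86 each. They cannot be read as separate measurements. Exons of SNX5 and OVOL2 overlap on the same strand, and those of GINS1 and NINL on opposite strands. JAG1 overlaps the antisense locus ENSG00000270792, whose mean was 0.167 CPM for wild type and 0.407 CPM for the mutant. MKKS, a chaperonin-like protein gene, has 2 identifiers among the members, at -0.86 and -0.84. How the authors' counting treated strand and reads with several matches is not given in the sources used here, and values of such genes are uncertain.

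Neighbouring start sites did not always go with similar values. Among members with a mean of at least 1 CPM, 7 pairs on opposite strands had start sites within 1000 bp of each other. Their log2 fold changes differed by a median of 0.30, and those of 110 pairs of adjacent members by 0.32. SNX5 (-1.33) and MGME1 (-0.82) start 38 bp apart. ABHD12, a lysophospholipid lipase gene (-0.54), and GINS1 (-1.15) start 173 bp apart. CENPB (-0.88) and CDC25B, a phosphatase that activates cyclin-dependent kinases (-0.24), start 32 bp apart, and CDC25B was not called. These pairs were named after their values were seen.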

How the data were processed

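Ribosomal RNA-depleted RNA-seq libraries of 3 wild-type and 3 EAF1-mutant samples were grouped by their labels. Library preparation was strand-specific. The authors trimmed paired-end reads, mapped them to GRCh38 with HISAT2 (2.3.4.1), assigned them to Ensembl genes using Rsubread and deposited the counts per gene without normalization. The submitters' processing notes also name bcl2fastq 2.18, Trimmomatic 0.38, R 4.0.2 and DESeq2 1.28.1. The deposited table of ELL signal on histone genes was not used, since none of its genes lies on chromosome 20, and DNA was not analysed here.

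Symbols, biotypes, positions and exon lengths came from GENCODE v44 (GRCh38). Of 186 annotated protein-coding genes under the coordinate limit, 183 had a row in the table. TMM factors, the filterByExpr filter and quasi-likelihood tests, adjusted over 28025 genes by the Benjamini-Hochberg method, were from edgeR 4.0.16 (R 4.3.3). Standard errors are the log2 fold change divided by the square root of the F value. Library deviations were in log2 CPM (prior count 2), and between-gene levels in CPM per kb of exon. Summaries were made in Python 3.11.15. The test code was tested on simulated data. Library totals of 52541541 to 66611451 counts allowed genes under 1 CPM to be tested, and the biological coefficient of variation was 4.11%.

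Members and lists were chosen with earlier results of these data known. Genes named were the called-higher members (up to 10) and the 10 lowest, both with a mean of at least 1 CPM; the 10 with the highest wild-type CPM per kb; the 5 nearest the median with a mean of at least 10 CPM; in each function list the 3 most abundant per kb and the one with the largest change; and the 3 tested genes at each end of the arm and the 3 first of 20q. Others are named as chosen after their values were seen. Of the HEK293T markers chosen, 1 is not reported here. The alternatives were DESeq2 1.42.0, library totals without TMM, other filters, each library left out, other thresholds, a replicate block, members without exon overlap and a limit of 25000000.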

Additional observations from a re-analysis of the deposited data

How the results depend on the processing

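The median log2 fold change of the tested members was under 0 in every alternative run. It was -0.51 with DESeq2 and its size factors, -0.44 with library totals without TMM, -0.50 with no filter on low counts, where 164 members had a value, and -0.65 over members with a mean of at least 10 CPM, an alternative chosen after seeing the data. Leaving out each library in turn gave medians from -0.57 to -0.55. The number called lower stayed within 1.5 times of 68 except at a log2 fold change over 1 in size, with 11 members, and over members without exon overlap, with 40; both rules count fewer genes by construction. The number called higher was 6 to 8, except over members with a mean of at least 10 CPM, with 2. That rule leaves out genes with less RNA, and 609 of 11418 tested genes at that level were called higher. Over the processing alternatives, the share of all tested genes called lower ran from 4.87% with DESeq2 to 10.7% with a filter of a mean of at least 1 CPM. The share called higher ran from 5.10% with DESeq2 to 14.9% with library totals. For a log2 fold change over 1 and for members without exon overlap no such share is given, and nothing is read from those counts. By position, the window from 5 to 10 Mb moved to -0.65 with a filter of a mean of at least 1 CPM and to -0.19 with library totals without TMM. The window from 20 to 28 Mb moved to -0.20 with no filter and -0.23 with DESeq2. The cause of these moves was not tested. With library totals without TMM, 7 of the 47 members under the naming rule, with log2 fold changes from -0.61 to -0.54, were no longer called (DSTN, PTPRA, KIF16B, ZCCHC3, CSNK2A1, ENTPD6 and ZNF337), and BTBD3, not called, passed the threshold under 4 alternatives. Whether shared replicate numbers pair the libraries of the genotypes is not known. Correlations of same-numbered deviations were 0.20, -0.18 and 0.41, and those of other pairs ran from -0.50 to 0.31. With 3 libraries per genotype these correlations can neither show nor exclude a pairing. With the replicate block the median was -0.55, with 68 called lower and 7 higher, beside 9.39% and 10.9% of all tested genes. Depth limits the 55 members not tested, each with at most 53 counts over the 6 libraries, and no direction is given for them.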

Other observations

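Loci of 20p that encode no protein were also mostly under 0, but many share place or reads with members. Of 97 such loci that passed the filter, mostly long noncoding RNAs and pseudogenes, 81 had a log2 fold change under 0 (median -0.47), 31 were called lower (9.36% of all tested genes) and 4 higher (11.0%). The median was -0.45 for the 48 long noncoding RNAs of the arm and 0.08 for all 6111 tested ones. Exons of 27 of the 97 overlap exons of members, and 13 of these were called lower. Another 32 lie within or across the span of a member without sharing exons, with 7 called lower (median -0.67). The 38 outside members had a median of -0.37, with 31 under 0, 11 called lower and 2 called higher. SNORD17, a small nucleolar RNA inside SNX5, had 61.1, 62.5 and 49.6 CPM in wild type and 29.3, 30.6 and 30.2 CPM in the mutant (-0.94, standard error 0.06). All its mutant libraries were lower, though 1 wild-type library stood apart from the others. RPL41P1, a processed pseudogene of the ribosomal protein gene RPL41, had 170.4, 176 and 174 CPM in wild type and 163, 160.0 and 149 CPM in the mutant (-0.14, standard error 0.04). Reads of such a copy can come from its parent gene elsewhere, and its value is uncertain. These loci were picked after their values were seen.

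Since ligands of the BMP and Notch pathways were among the members called higher, other genes of both pathways are given as values, from lists written after those of the ligands were seen. BMP2 binds receptors that activate SMAD proteins, whose target genes include those for ID proteins, inhibitory SMADs and SMAD9. Of these 7 genes, 6 were over 0 and 3 were called higher, beside 11.0% of all tested genes. ID2 had 83.8, 82.9 and 84.2 CPM in wild type and 271, 252 and 254 CPM in the mutant (1.63, standard error 0.04). All mutant libraries were higher for ID2, which had the largest rise of the 7. ID4 (0.78) and SMAD7 (0.56) were the others called higher. ID1 (0.12), ID3 (0.28), SMAD9 (0.49) and SMAD6 (-0.13) were not called. The 4 BMP receptor genes were divided, with 2 over 0 and 1 called higher. The 4 tested genes for BMP inhibitors were divided too, with 2 over 0 and 2 under 0, between -0.14 and 0.28.

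JAG1 activates Notch receptors, which induce HES and HEY repressors. Of 7 Notch target genes all were over 0 and 4 were called higher, beside 11.0% of all tested genes. HES5 had 0.584, 0.376 and 0.747 CPM in wild type and 26.5, 24.6 and 25.7 CPM in the mutant (5.48, standard error 0.11). HES1 was at 0.79, with every mutant library above every wild-type library. HEY1, the most abundant of the 7 targets, was not called (0.14), nor were HEY2 (0.39) and NRARP (0.32). Of the 4 Notch receptor genes 3 were over 0 and 1, NOTCH1 (0.64), was called higher. NOTCH2, the most abundant of them, lay lower in every mutant library and was not called (-0.17). NOTCH3 (0.21) and NOTCH4 (0.46) were not called. Of the 4 other Notch ligand genes 3 were over 0 and 1, DLL4 (0.71), was called higher, while JAG2 (0.43), DLL1 (0.07) and DLL3 (-0.28) were not called. Any link between these values and those of the ligands was not tested.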
